A study of Homo sapiens with 12 samples.

Results

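The genes described here are those whose mRNA differed between metformin-treated and control LNCaP cells, outside the 11 ER stress genes that the study displayed for the same arrays. LNCaP is a human prostate cancer cell line of luminal, androgen-responsive character. Of the 12 two-colour oligonucleotide arrays of the series, 4 set metformin directly against control and were chosen by the labels of both channels. Cells received 5 mM metformin, 5 mM AICAR or no drug, in 2 cultures named as replicates in the labels. In each culture the metformin and control RNA were hybridized on 2 arrays with the dyes swapped. The labels give 24 h of treatment, whereas a figure legend of the study gives 14 h, and the RNA integrity number was 9 in every sample. AICAR is a nucleoside that cells turn into an activator of AMPK, and its 8 arrays, 4 against control and 4 against metformin, entered the fit. All groups are of this 1 cell line, and nothing in the labels says how the 2 cultures were separated, so p-values measure the spread between these 2 cultures only.

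Metformin is a biguanide that inhibits complex I of the respiratory chain and thereby lowers the energy charge of the cell. Cells answer such stress in several known ways. AMPK and its partners slow anabolic growth, and kinases that phosphorylate eIF2α dampen translation while favouring the transcription factor ATF4. ATF4, with its partners CHOP and C/EBPγ, drives genes for amino acid synthesis, amino acid import and tRNA charging. Cell cycle entry in turn depends on E2F factors for replication genes and on the DREAM and MuvB complexes for mitotic genes.

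Each value below is a log2 ratio of metformin over control. The deposited values are log ratios of the red (Cy5) to the green (Cy3) channel as read here, on a log2 scale, since neither the base nor the direction is stated in the sources used. The direction is therefore likely rather than settled. It rests on limma's convention, on the dyes in the labels and on the study's legend, which lists its 11 ER stress genes as induced; all 11 had a positive ratio here. The study also describes REDD1 and Sestrin 2, the products of DDIT4 and SESN2, as induced in these cells, and both had positive ratios. It describes cyclophilin D mRNA as reduced, and its gene PPIF had a negative ratio. Ratios carry no level per channel, so the cell type could not be checked by the level of its markers, and fewer cells or less RNA per cell cannot be told apart. Dye-swap partners correlated across transcripts at −0.431 in culture 1 and −0.547 in culture 2 before their signs were aligned, and the aligned means of the cultures correlated at 0.592 (genes are not independent replicates). The pair of arrays that set metformin against control in culture 1, and 1 array with AICAR from that culture, carry description numbers that stand apart from those of the other arrays; what these numbers mean is not given in the labels.

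In the fit to all 12 arrays, 671 of 24527 transcripts passed an adjusted p below 0.05 together with a log2 ratio beyond 0.7 in either direction. Metformin-treated cells had 368 higher transcripts, 1.5% of those tested, and 303 lower ones, 1.24%. Of these, 273 and 240 carried a gene symbol. Outside the ER stress list 363 higher transcripts remained, 268 of them named, because 5 of the 11 listed genes passed and none of them was lower. The median log2 ratio was 1.02 among the higher transcripts and −0.97 among the lower ones. In the direction used here 29 transcripts lay above 2 and 3 below −2, and turning the sign would exchange these counts, as it would all others.

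These calls rest on the spread estimated over the 3 treatments. When only the 4 metformin and control arrays were fitted, with 1 residual degree of freedom, limma called 0 transcripts, the smallest adjusted p was 0.0780, and 3946 transcripts had an unadjusted p below 0.05. With the same 4 arrays as 4 separate data points, 614 of the 671 calls passed, although dye-swap partners are not independent. All 4 arrays had the same sign for 666 of the 671, against 26.1% of all transcripts, which is in part a consequence of the call itself. By the direct ratios, 303 of the 368 higher transcripts lay above 0.7 in both cultures, and 237 of the 303 lower ones lay below −0.7 in both.

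The 20 highest named genes outside the ER stress list had fitted log2 ratios from 2.24 to 3.80. TRIB3, a pseudokinase induced by ATF4 that binds AKT, was the highest. Its ratios were 3.69 and 4.34 in culture 1 and 3.35 and 4.09 in culture 2 (metformin in Cy5, then in Cy3). The fitted ratio of 3.80 ± 0.11 (adjusted p = 0.00455) was a 14-fold difference. Here and below, ± gives the SE of the limma fit, whose spread is estimated over the 3 treatments in the 2 cultures. It is not the spread of the metformin and control ratios alone. S100P, a small calcium-binding protein, had 3.14 and 4.29 in culture 1 and 3.19 and 3.55 in culture 2. SAT1, the acetyltransferase that starts polyamine breakdown, had 3.47 and 3.66 in culture 1 and 3.39 and 3.20 in culture 2. For these genes the lowest of the 4 arrays was still above 3, and the fitted increases were 10.9-fold for S100P and 10.7-fold for SAT1.

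DDIT4 and SESN2, inhibitors of mTORC1 that respond to energy and amino acid stress, were both among the 20, and the study names both on these samples. DDIT4 had ratios of 3.56 and 3.15 in culture 1 and 3.26 and 3.05 in culture 2 (fitted 3.28 ± 0.14). SESN2 had 1.22 and 3.03 in culture 1 and 2.26 and 3.28 in culture 2 (fitted 2.48 ± 0.22). The SESN2 ratio was lower in both cultures when metformin RNA carried Cy5. MOCOS, which activates molybdenum enzymes, showed the same dependence on the dye, with 2.35 and 3.20 in culture 1 and 2.43 and 3.40 in culture 2.

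The remaining genes among the 20 highest had diverse known roles. ATF3 and NFIL3 are stress-responsive leucine zipper factors, at 2.79 and 2.30. The 4 probes of ATF3 disagreed, with fitted ratios of 0.25, 3.16, 3.66 and 4.10. GADD45A, a growth arrest gene, was at 2.63, and ASNS, which makes asparagine, at 2.55. GTPBP2, a GTPase linked to ribosome rescue, was at 2.68. BEX2, of the brain-expressed X-linked family, had the narrowest range over the 4 arrays among the 20 highest, between 2.45 and 2.67 (fitted 2.55 ± 0.08). LCN2, an iron-carrier binding protein of the innate response, and the chemokine CCL20 were at 2.38 and 2.26. HMOX1, which degrades heme, the aldo-keto reductase AKR1C2, which inactivates dihydrotestosterone, and cytosolic IDH1 were at 2.38, 2.36 and 2.32. AKR1C2 shares most of its sequence with other AKR1C genes, so its probes may read more than 1 of them, and the ratio of AKR1C1 was 0.20. The autophagosome protein MAP1LC3B was at 2.24, the actin nucleator SPIRE1 at 2.40 and the mucin glycosyltransferase GCNT3 at 2.40.

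**Figure D1:**
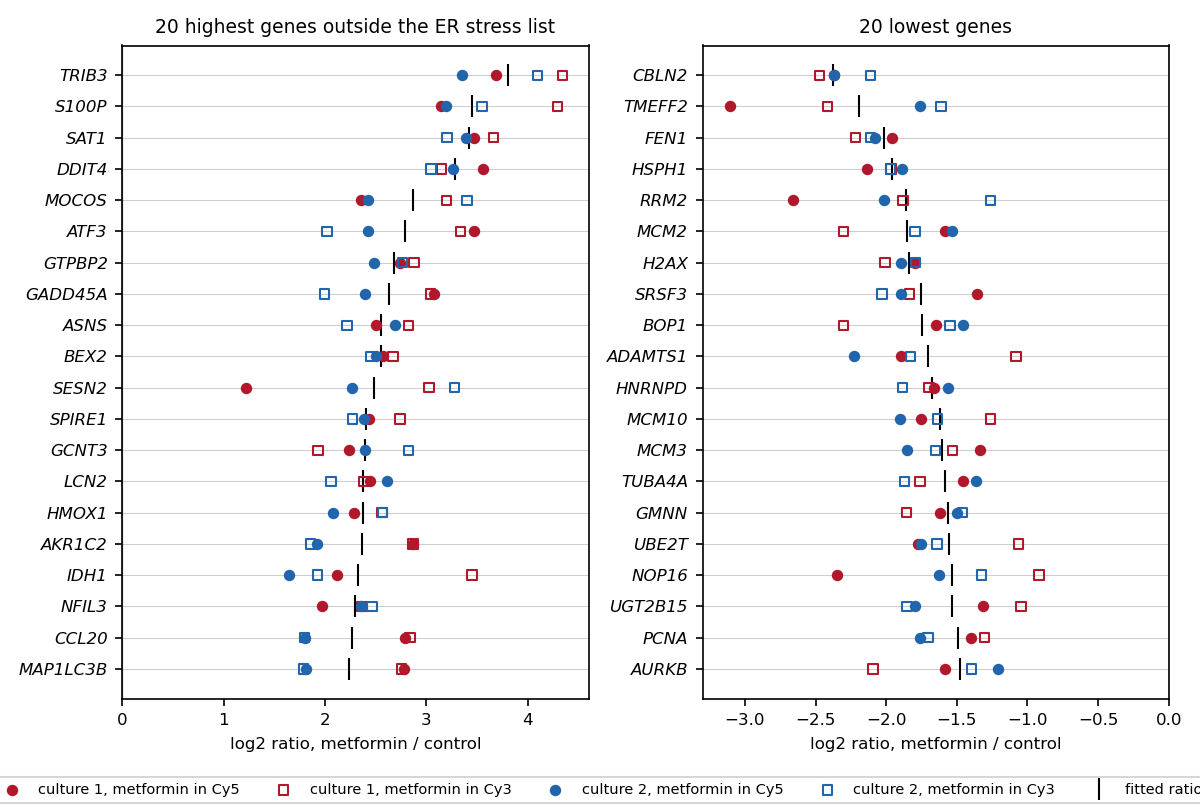
Log2 ratio of metformin over control (x axis) on each of the 4 arrays for the 20 highest genes outside the ER stress list and the 20 lowest genes; circles have metformin in Cy5, open squares in Cy3, red is culture 1, blue is culture 2, and the black line is the fitted ratio. Every array of the 20 highest genes lies above 1, whereas 1 array of NOP16 lies above −1 among the 20 lowest.

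The 20 lowest named genes had fitted log2 ratios from −2.38 to −1.47. CBLN2, a secreted synaptic organizer, was the lowest, with −2.37 and −2.47 in culture 1 and −2.37 and −2.11 in culture 2. It was 5.2-fold lower in metformin-treated cells (−2.38 ± 0.11, adjusted p = 0.00895). TMEFF2, a transmembrane protein abundant in the prostate, had −3.10 and −2.42 in culture 1 and −1.76 and −1.61 in culture 2. Its decrease was larger in culture 1, without overlap of the arrays of the 2 cultures.

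Replication factors made up a large part of the 20 lowest genes. FEN1, the nuclease that trims Okazaki fragments, had −1.96 and −2.21 in culture 1 and −2.08 and −2.11 in culture 2 (fitted −2.02 ± 0.11), a 4.05-fold decrease. MCM2 and MCM3, subunits of the replicative helicase, and MCM10, which helps to activate it, were at −1.85, −1.61 and −1.62. RRM2, a subunit of ribonucleotide reductase, was at −1.86, PCNA, the sliding clamp, at −1.49 and GMNN, the inhibitor of origin licensing, at −1.57. H2AX, a histone variant of the damage response, was at −1.84, UBE2T, an enzyme of the Fanconi pathway, at −1.56 and AURKB, the mitotic kinase, at −1.47.

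The other genes of the 20 lowest were HSPH1, a heat shock cochaperone (−1.96), the RNA-binding proteins SRSF3 (−1.75) and HNRNPD (−1.68), and the ribosome assembly factors BOP1 (−1.75) and NOP16 (−1.54). ADAMTS1, a secreted protease, was at −1.71, and the tubulin TUBA4A, whose coding sequence resembles that of other alpha tubulins, was at −1.58. UGT2B15, an enzyme that glucuronidates androgens, was at −1.53. Of these, NOP16 varied most among arrays, with −2.35 and −0.92 in culture 1 and −1.63 and −1.32 in culture 2.

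Among 39 measured ATF4 and CHOP targets outside the ER stress list, 18 were higher with metformin, 21 did not pass and 0 were lower. The share of 46.2% compares with 1.5% of all transcripts, the median log2 ratio was 0.96 against −0.00014 over all transcripts, and 37 of 39 ratios were positive. The members of this list and of those below were chosen with earlier results of these data known. That choice may have raised their shares, so the background share is given for scale only. The study itself points to DDIT4 and SESN2 in these cells, so those members are not independent evidence of the direction. Besides the genes given above, NUPR1, a chromatin-associated stress factor (2.09), STC2, a secreted glycoprotein (1.89), and CEBPG, the partner of ATF4 (1.84), were higher. FGF21, a stress hormone, had 1.16 and 1.30 in culture 1 and 0.77 and 1.30 in culture 2 (fitted 1.23 ± 0.09). The enzymes GOT1 (1.49), GPT2 (1.17) and CTH (0.87) and the amino acid carriers SLC7A5 (1.31), SLC1A5 (0.97) and SLC1A4 (0.96) were higher as well. The death receptor TNFRSF10B (1.18) and the leucine zipper factor JDP2 (0.90) were higher too, and NARS1, a tRNA synthetase described below, is the last of the 18. CTH had probes at 0.33 and 1.40.

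Several genes of the same list lay apart in the 2 cultures and did not pass. PSAT1, of serine synthesis, had 2.54 and 2.18 in culture 1 and 0.92 and 0.54 in culture 2 (adjusted p = 0.125). MTHFD2, of mitochondrial folate metabolism, had 2.45 and 2.02 in culture 1 and 1.08 and 0.60 in culture 2 (adjusted p = 0.0874). Both were positive on all 4 arrays. With the 3 arrays whose description numbers stand apart left out, 13 members of the list were higher.

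Of 19 cytosolic aminoacyl-tRNA synthetases measured, 5 were higher with metformin (26.3%, against 1.5% of all transcripts) and 0 lower, with a median of 0.92. SARS1 (1.67), CARS1 (1.56), WARS1 (1.55), NARS1 (1.35) and AARS1 (1.33) passed. GARS1 had 2.08 and 2.66 in culture 1 and 0.82 and 1.02 in culture 2 and did not pass (adjusted p = 0.0824). The family did not move as one, since 7 of 19 ratios were negative, among them FARSA at −1.07 and FARSB at −0.74, neither of which passed. Only 2 synthetases passed when those 3 arrays were left out.

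The C/EBP-ATF response element, through which ATF4 acts, was searched in RefSeq promoter windows, since the highest genes included many known ATF4 targets. The core TGATGNAA was looked for on both strands in windows from 250 bases before to 50 bases after annotated starts (build GRCh38.p14), and a match is a description of letters, not evidence of binding. It occurred for 20 of 241 genes called higher that had a window (8.3%), for 0 of 209 called lower and for 422 of 11566 named genes tested with a window (3.65%). Among the called ATF4 and CHOP targets 9 of 15 held it (60%), namely ASNS, ATF3, CEBPG, GOT1, NARS1, FGF21, SLC1A5, SLC1A4 and JDP2; those genes were placed in that list for known regulation by ATF4. The 250 bases before the start are printed for the 3 highest of the 20 top genes with a match, with the match in capitals.
S100P, chr4:6693628-6693877 (plus strand): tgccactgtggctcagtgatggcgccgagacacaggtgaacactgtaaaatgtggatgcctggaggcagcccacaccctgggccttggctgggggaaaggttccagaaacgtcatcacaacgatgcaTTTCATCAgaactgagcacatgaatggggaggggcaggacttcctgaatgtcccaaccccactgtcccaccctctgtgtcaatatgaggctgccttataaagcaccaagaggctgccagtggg
ATF3, chr1:212565157-212565406 (plus strand): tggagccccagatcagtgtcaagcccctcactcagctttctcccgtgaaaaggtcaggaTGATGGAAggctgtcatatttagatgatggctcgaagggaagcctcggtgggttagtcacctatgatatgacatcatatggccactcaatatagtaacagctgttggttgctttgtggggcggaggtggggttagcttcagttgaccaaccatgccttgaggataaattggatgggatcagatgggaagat
ASNS, chr7:97872409-97872658 (minus strand): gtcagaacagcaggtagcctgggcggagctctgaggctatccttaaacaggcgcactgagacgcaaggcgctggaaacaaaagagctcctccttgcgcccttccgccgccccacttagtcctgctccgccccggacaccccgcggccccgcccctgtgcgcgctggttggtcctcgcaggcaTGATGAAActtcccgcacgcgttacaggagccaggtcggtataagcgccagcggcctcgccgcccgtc
The match lies 68 bases before the start in ASNS, 191 in ATF3 and 123 in S100P, counted to its first base, and in S100P it reads on the opposite strand. ASNS had 2.50 and 2.83 in culture 1 and 2.69 and 2.22 in culture 2. S100P is not a member of the ATF4 list, and TRIB3, SAT1 and DDIT4 had no match in their windows, which says only that these letters are absent there.

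Calls among replication genes were decreases. Of 44 measured, 19 were lower with metformin, 25 did not pass and 0 were higher, 43 of 44 ratios were negative, and the median was −0.75. The share of 43.2% compares with 1.24% of all transcripts. Beyond those among the 20 lowest, MCM4 (−1.42), the clamp loader genes RFC2 (−1.33) and RFC5, CDC45 (−1.24), LIG1 (−1.02), RPA2 (−1.05), CDC6 (−0.94), DTL, POLE2, ORC1, RRM1 and the thymidylate synthase gene TYMS (−1.12) passed. CDC45, of the replicative helicase, had −1.07 and −1.56 in culture 1 and −1.12 and −1.25 in culture 2. The probes of TYMS disagreed, at −2.10 and −0.14, and those of DTL at −1.47 and −0.31. When the 3 arrays with separate description numbers were left out, 12 replication genes passed.

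Of 49 mitotic genes measured, 16 were lower (32.7%, against 1.24% of all transcripts) and 0 higher, with a median of −0.71 and 48 of 49 negative ratios. AURKB, BIRC5 (−1.22), NDC80 (−1.17), CENPM (−1.03), CCNB1 (−1.01), NCAPH (−0.99), BUB1B (−0.97), CKS2 (−0.94), SPC24 (−0.92) and CCNA2 (−0.89) were among them. Cyclin B1, which drives entry into mitosis, had −0.57 and −0.94 in culture 1 and −1.13 and −1.25 in culture 2 for its gene CCNB1. CCNA2, encoding cyclin A2, was uneven, with −1.14 and −0.06 in culture 1 and −0.53 and −1.28 in culture 2. CDK1, the kinase that cyclin B1 activates, had a fitted ratio of −1.5 but did not pass (adjusted p = 0.0635). The fit without those 3 arrays called 6 mitotic genes. Of 23 genes of purine and pyrimidine synthesis, 5 were lower (21.7%, against 1.24%) and 0 higher. They were MTHFD1 (−1.19), UMPS (−0.97), DTYMK (−0.89), CTPS1 (−0.72) and TYMS, already counted among the replication genes.

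Motifs of cell cycle promoters were read in the same windows. Either of the E2F motifs TTTGGCGC and TTTCCCGC occurred for 23 of 209 genes called lower (11%), for 6 of 241 called higher (2.49%) and for 455 of 11566 tested (3.93%). Among the called replication genes 8 of 17 held one (47.1%), but replication genes are a class known to depend on E2F factors. No share was taken for uncalled members of the replication or mitotic lists, so a link between motif and decrease was not tested. The cell cycle homology region (CHR) motif TTTGAA, of only 6 bases, occurred for 36 genes called lower (17.2%). That share was near the 16% of those tested, and 24 genes called higher held the motif (9.96%). Among the called mitotic genes, a class known to depend on the DREAM and MuvB complexes, 8 of 14 held it (57.1%). HSPH1 and H2AX are the lowest of the 20 with a match, and both held CHR, whose share among lower genes was near that of all genes tested. MCM3 and BUB1B were added after their values were seen, as the lowest called replication gene with an E2F motif and the lowest called mitotic gene with a CHR motif before its start. Capitals mark the motif.
HSPH1, chr13:31162389-31162638 (minus strand): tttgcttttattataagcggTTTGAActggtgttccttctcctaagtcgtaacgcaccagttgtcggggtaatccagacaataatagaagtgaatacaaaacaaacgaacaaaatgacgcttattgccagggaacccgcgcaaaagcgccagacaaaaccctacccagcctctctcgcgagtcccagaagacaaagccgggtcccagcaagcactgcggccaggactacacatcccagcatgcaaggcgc
H2AX, chr11:119095466-119095715 (minus strand): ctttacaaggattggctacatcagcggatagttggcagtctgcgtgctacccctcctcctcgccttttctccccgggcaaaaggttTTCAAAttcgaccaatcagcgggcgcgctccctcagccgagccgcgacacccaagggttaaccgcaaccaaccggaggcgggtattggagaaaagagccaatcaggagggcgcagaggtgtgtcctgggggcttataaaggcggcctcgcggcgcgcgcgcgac
MCM3, chr6:52284743-52284992 (minus strand): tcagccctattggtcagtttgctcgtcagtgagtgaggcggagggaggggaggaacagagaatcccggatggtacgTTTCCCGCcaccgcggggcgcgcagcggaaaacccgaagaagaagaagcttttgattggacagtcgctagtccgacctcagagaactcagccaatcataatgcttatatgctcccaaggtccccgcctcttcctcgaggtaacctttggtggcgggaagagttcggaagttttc
BUB1B, chr15:40160819-40161068 (plus strand): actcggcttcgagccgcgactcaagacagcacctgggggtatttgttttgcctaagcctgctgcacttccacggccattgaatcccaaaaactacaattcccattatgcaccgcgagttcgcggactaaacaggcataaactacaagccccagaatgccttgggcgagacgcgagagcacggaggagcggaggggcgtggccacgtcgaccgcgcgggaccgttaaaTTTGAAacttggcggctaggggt
The first base of the match lies 230 bases before the start in HSPH1, 164 in H2AX, 174 in MCM3 and 23 in BUB1B. In H2AX the match reads on the opposite strand. No printed match overlaps another. BUB1B, a kinase of the spindle checkpoint, had ratios of −0.79 and −0.61 in culture 1 and −1.42 and −1.02 in culture 2. The 3 lowest genes, CBLN2, TMEFF2 and FEN1, had no match to these motifs in their windows.

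**Figure D2:**
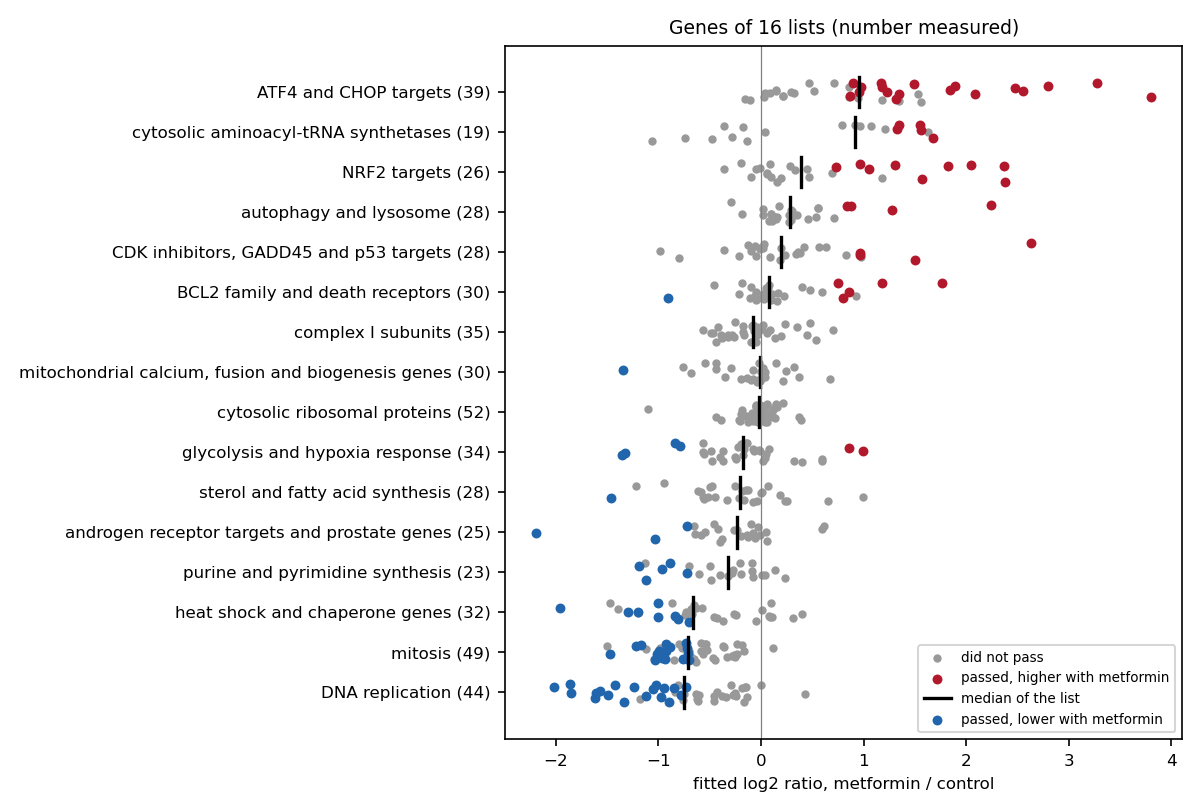
Fitted log2 ratio of metformin over control (x axis) for the measured genes of 16 lists, 1 point per gene, with the median as a black line; red points passed as higher, blue points as lower and grey points did not pass. The medians run from 0.96 for ATF4 and CHOP targets to −0.75 for replication genes, and complex I subunits and ribosomal proteins have no coloured point.

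Calls among heat shock and chaperone genes were decreases. Of 32 measured, 8 passed as lower (25%, against 1.24% of all transcripts), 24 did not pass and 0 were higher, with a median of −0.66 and 7 positive ratios. HSPH1 had −2.13 and −1.97 in culture 1 and −1.89 and −1.97 in culture 2. HSPB1, the small heat shock protein (−1.30), STIP1, the adaptor of HSP70 and HSP90 (−1.20), the chaperonin subunits CCT2 (−1.01) and CCT3, the HSP90 activator AHSA1, HSPE1 (−0.81), which encodes the mitochondrial HSP10, and HSP90AB1 (−0.70) were lower as well. HSPD1, the mitochondrial partner of HSPE1, was at 0.08 and did not pass. HSP90AA1 differed between cultures, with −0.57 and −0.62 in culture 1 and −2.41 and −2.19 in culture 2, and did not pass (adjusted p = 0.143). In the fit without the 3 arrays named above, 6 chaperones passed.

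Targets of NRF2, the regulator of antioxidant genes, included 9 higher (34.6%, against 1.5% of all transcripts) and 0 lower genes of 26 measured, and the median was 0.39. HMOX1 had 2.28 and 2.56 in culture 1 and 2.08 and 2.57 in culture 2. SRXN1, which repairs peroxiredoxins (2.05), AKR1C2, AKR1C3 (1.82), GCLM, of glutathione synthesis (1.57), ME1 (1.30), FTL (1.06), NQO1 (0.96) and PIR (0.73) were also higher. The other NRF2 targets of the list were less uniform. TXNRD1, encoding thioredoxin reductase, had 2.46 and 3.36 in culture 1 and −0.49 and −0.44 in culture 2, so the cultures had opposite signs. GCLC, the partner of GCLM, had a fitted ratio of 0.10 and did not pass.

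Genes of growth arrest, death and autophagy contributed smaller groups. Of 28 CDK inhibitor, GADD45 and p53 target genes, 4 were higher (14.3%, against 1.5%) and 0 lower. GADD45A had 3.08 and 3.04 in culture 1 and 2.40 and 1.99 in culture 2. GADD45G (1.5) and the CDK inhibitor genes CDKN1B (0.96) and CDKN1A (0.96) passed too, although 1 of the 2 CDKN1A probes was at −0.05 and the other at 1.98. Of 30 BCL2 family and death receptor genes, 5 were higher (16.7%, against 1.5% of all transcripts) and 1 lower (3.33%, against 1.24%, a share near the background). BBC3, encoding the death promoter PUMA, had 1.32 and 1.85 in culture 1 and 1.83 and 1.96 in culture 2 (fitted 1.77 ± 0.14). TNFRSF10B, already counted among the ATF4 and CHOP targets, was higher. The BH3-only gene BMF (0.85) and the inhibitor of apoptosis genes BIRC2 (0.80) and BIRC3 (0.75) were higher, and the BH3-only gene BID was lower (−0.91). Higher members of this list thus include both promoters and inhibitors of death.

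Autophagy and lysosome genes had 4 higher (14.3%, against 1.5%) and 0 lower members of 28. MAP1LC3B had 2.78 and 2.76 in culture 1 and 1.82 and 1.79 in culture 2. GABARAPL1, a relative of it (1.28), the protease gene CTSL (0.87) and the transcription factor gene TFE3 (0.84) also passed. In the polyamine list of 14 genes, SAT1 was higher and the spermidine synthase gene SRM lower (−1.06), and 12 did not pass. Each is 7.14% of that list, against 1.5% higher and 1.24% lower over all transcripts. In the list of 20 mTORC1, AMPK and energy stress regulators, DDIT4 and SESN2 were higher (10%, against 1.5%) and 18 did not pass. Both were already counted among the ATF4 and CHOP targets.

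The lists of complex I subunits and of mitochondrial calcium, fusion and biogenesis genes had calls near the background shares of 1.5% higher and 1.24% lower. Mitochondrial ribosomal protein genes, grouped after the values were seen, differed from these lists, with 7 of 76 lower and a median of −0.24. Of 35 complex I subunits 0 passed in either direction (median −0.076). The nearest was NDUFS4, at 0.70 (adjusted p = 0.0280), just under the log2 limit. Among 30 genes of mitochondrial calcium handling, fusion and biogenesis, PPIF, encoding cyclophilin D of the permeability transition pore, was the 1 that passed (3.33% lower). It had −1.21 and −2.06 in culture 1 and −1.03 and −1.40 in culture 2 (fitted −1.34 ± 0.15, adjusted p = 0.0237), a 2.54-fold decrease.

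By other methods the study followed the IP3 receptors, MCU and cyclophilin D as mRNA. It followed VDAC1, MFN2, NRF1, TFAM, NDUFA9 and SDHA as protein, by immunoblotting. Its text describes increases, except decreases of MFN2 and cyclophilin D and no stated direction for SDHA. Of these genes none but PPIF passed on the arrays, which read mRNA and so do not test the protein results. ITPR1, an IP3 receptor of the ER, had −0.09 and 0.63 in culture 1 and 0.78 and 0.96 in culture 2 (fitted 0.68 ± 0.16, adjusted p = 0.118). The fitted ratios of ITPR2, ITPR3 and the uniporter gene MCU were −0.08 ± 0.09, −0.01 ± 0.14 and −0.01 ± 0.08. VDAC1, the channel of the outer membrane, had 0.20 and −0.19 in culture 1 and −0.98 and −1.09 in culture 2 (fitted −0.55 ± 0.26, adjusted p = 0.381). MFN2, the fusion gene, had 0.30 and −0.11 in culture 1 and −0.87 and −1.15 in culture 2 (fitted −0.44 ± 0.26, adjusted p = 0.506). For both, only culture 2 lay clearly below 0. The fitted ratios of the biogenesis factors NRF1 and TFAM were 0.37 ± 0.09 and −0.35 ± 0.15, those of the respiratory subunits NDUFA9 and SDHA −0.47 ± 0.17 and −0.13 ± 0.07. A p above the threshold does not show that these mRNAs were equal in metformin-treated and control cells.

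Calls among glycolysis and hypoxia genes were split, with 11.8% lower and 5.88% higher, against 1.24% and 1.5% of all transcripts. Of 34 measured, LDHA (−1.36), TPI1 (−1.32), PFKP (−0.83) and PGAM1 (−0.79), enzymes of glycolysis, were lower, and P4HA2 (1.00) and KDM3A (0.85), both 2-oxoglutarate-dependent enzymes, were higher. LDHA, which reduces pyruvate to lactate, had −1.13 and −1.0 in culture 1 and −1.44 and −1.57 in culture 2. Of 28 sterol and fatty acid synthesis genes, FASN, the fatty acid synthase gene, was the 1 that passed (3.57%, against 1.24% lower over all transcripts), with −1.32 and −1.97 in culture 1 and −1.09 and −1.40 in culture 2. The HMG-CoA synthase gene HMGCS1 was at −0.15 and did not pass. None of the 52 cytosolic ribosomal protein genes passed (median −0.016).

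Of 25 androgen receptor targets and prostate genes, 3 were lower (12%, against 1.24% of all transcripts) and 0 higher. TMPRSS2, an androgen-regulated protease, had −0.49 and −1.52 in culture 1 and −0.96 and −1.22 in culture 2 (fitted −1.04). KLK3, which encodes PSA, was at −0.72 and just past the limit, with −0.81 and −0.88 in culture 1 and −0.43 and −0.72 in culture 2. Its 3 probes were at −1.43, −1.20 and 0.47. TMEFF2 was the third. Of 8 luminal markers measured, all had a negative ratio and 2 passed as lower (25%, against 1.24% of all transcripts). Those 2 are TMPRSS2 and KLK3, already counted above, and 6 of the 8 markers also belong to other lists. Of 6 basal markers ITGA6 passed as higher (0.84), 16.7% against 1.5% of all transcripts. The other 5 ranged from −0.11 (KRT5 and TP63) to 0.35 (NGFR), 3 of them positive. None of 11 neuroendocrine markers passed; 7 ratios were negative and 4 positive, from −0.68 for TUBB3 to 0.15 for CHGA, with a median of −0.018. None of the luminal or basal markers passed without the 3 arrays named above. Of 28 immediate early genes 2 were higher (7.14%, against 1.5% of all transcripts), JUND and FOS, and of 23 interferon genes 2 were higher (8.7%), IFI35 and IRF1; the medians were 0.047 and 0.0057.

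The cultures differed for some genes far more than for others. Among named genes with a mean direct ratio beyond 1, the 6 with the largest gap between cultures were TXNRD1, HSP90AA1, AMD1, NUCB2, PSAT1 and GARS1. AMD1, of polyamine synthesis, had 0.01 and −0.57 in culture 1 and −1.80 and −2.17 in culture 2. NUCB2, encoding a calcium-binding Golgi protein, had 1.97 and 3.31 in culture 1 and 1.01 and 0.99 in culture 2. In all 6 the arrays of the cultures did not overlap, and none of the 6 passed. Both follow in large part from picking genes by that gap. Of the 3 arrays with separate description numbers, 2 are those of culture 1 in this comparison, and their part in the gap was not tested. Over the called transcripts no such tilt was seen for increases, as 174 of 368 were larger in culture 1, while 179 of 303 decreases went further in culture 1.

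**Figure D3:**
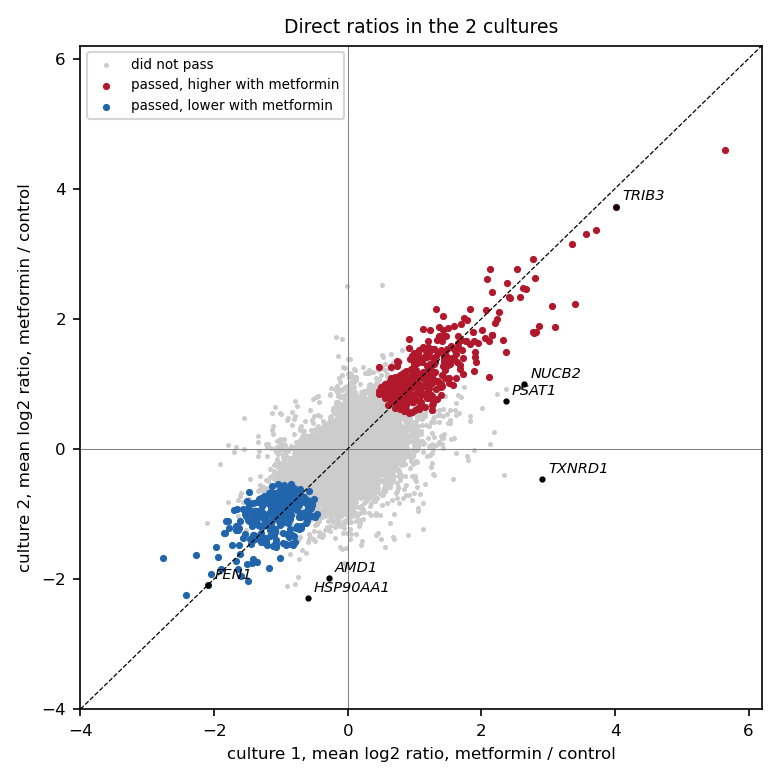
Mean log2 ratio of metformin over control in culture 1 (x axis) and culture 2 (y axis) for 24527 transcripts, with calls in red (higher) and blue (lower) and the line of equality dashed. Called transcripts lie along the line, in part because the call itself favours agreement between cultures. TXNRD1, picked for its large gap between cultures, lies at 2.91 in culture 1 and −0.46 in culture 2.

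The AICAR-treated cells of the same cultures allow each difference to be set against a second agent, an activator of AMPK that the study also classes as an energy disruptor. Metformin and control, and metformin and AICAR, share the metformin extracts, so the calls are not independent and the values are set side by side. Over all transcripts 4.59% were higher and 2.01% lower in metformin-treated than in AICAR-treated cells. Of the 368 transcripts higher than control, 276 (75%) were also higher than in AICAR-treated cells and 0 lower. Of the 303 transcripts lower than control, 132 (43.6%) were also lower than in AICAR-treated cells and 14 were higher.

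Of the 20 highest genes 18 passed against AICAR. TRIB3 was 4.33 ± 0.11 above AICAR-treated cells on the log2 scale, DDIT4 4.62 ± 0.14 and GTPBP2 3.79 ± 0.21. The exceptions were GADD45A, with a log2 ratio of metformin to AICAR of 0.46 ± 0.26 (adjusted p = 0.333), and NFIL3, with −0.01 ± 0.18 (adjusted p = 0.973). The fitted ratio of AICAR to control was 2.17 for GADD45A and 2.31 for NFIL3. For BBC3 the ratio of metformin to AICAR was −0.13 ± 0.14 (adjusted p = 0.623). SESN2 was 1.15 above AICAR-treated cells and 2.48 above control cells.

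Of the 20 lowest genes 14 passed against AICAR. HSPH1 was at −2.13 ± 0.15 against AICAR, BOP1 at −1.66, MCM2 at −1.51 and PCNA at −1.36. H2AX (−0.14), ADAMTS1 (−0.14), NOP16 (−0.13), AURKB (−0.01), TUBA4A (−0.60) and TMEFF2 (−1.01) did not pass. The fitted ratio of AICAR to control was −1.70 for H2AX and −1.47 for AURKB. Among the lower genes, 3 were higher in metformin-treated than in AICAR-treated cells and are named in a list above: UMPS (1.56 on the log2 scale), TMPRSS2 (0.86) and NDC80 (0.83). TFAM and NDUFA9, which did not pass against control, were lower than in AICAR-treated cells, at −1.01 and −0.81, and ITPR1 was higher, at 0.85.

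**Figure D4:**
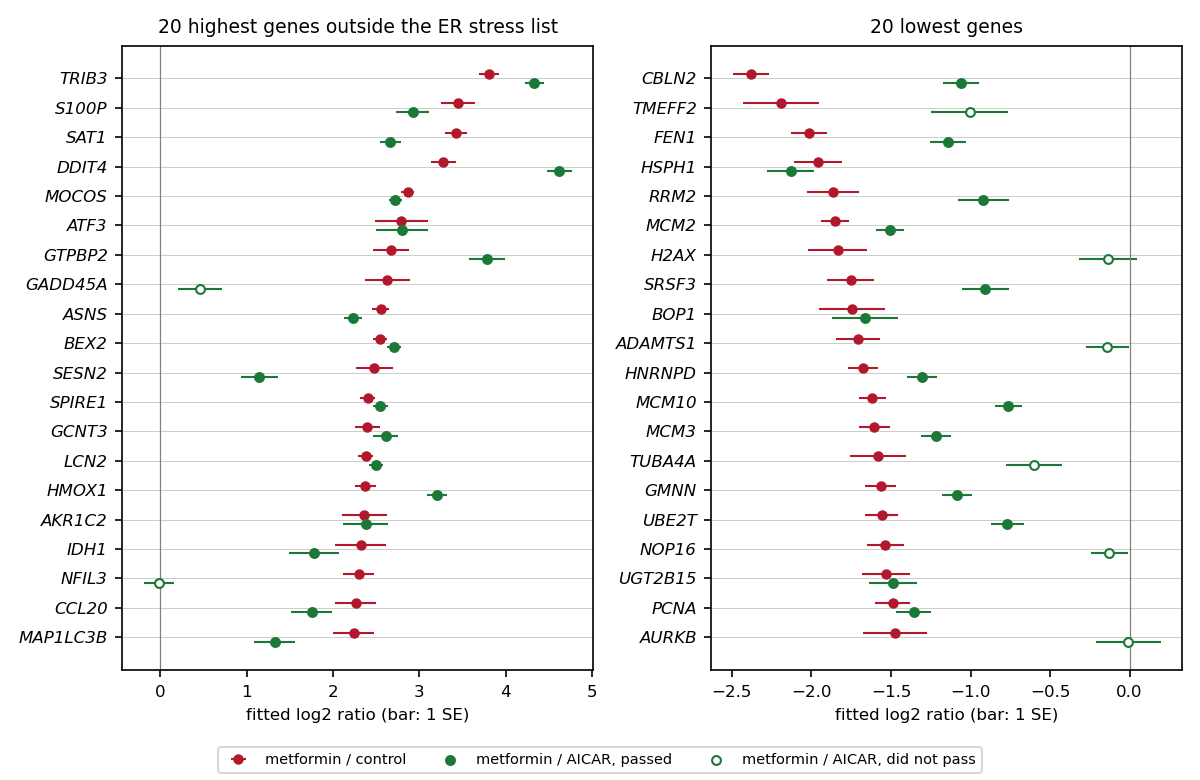
Fitted log2 ratio (x axis; bars are 1 SE) of metformin over control in red and of metformin over AICAR in green for the 20 highest genes outside the ER stress list and the 20 lowest genes; open green circles did not pass. GADD45A and NFIL3 lie near 0 against AICAR, as do H2AX, ADAMTS1, NOP16 and AURKB.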

How the data were processed

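The authors printed the arrays with a human oligonucleotide collection of 27648 features and normalized them in limma by print-tip loess within and quantiles between slides, per the methods of the study. The deposited values are log ratios, read here as log2; base, direction, background correction and limma's version are not given in the sources used here. Precision is limited by the number of cultures.

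Ratios were oriented to metformin over control by the dye labels. Of 17711 probes listed with 1 symbol, 14604 were named by accession through a RefSeq table, 2899 by symbol or synonym and 91 kept their symbol; 117 with conflicting names stayed unnamed, as did all others (10054 features). Probes of a gene were averaged (2019 genes), giving 24527 transcripts. The 2 arrays of a dye swap were averaged, and least squares turned the 6 mean ratios into levels of 6 extracts, to which limma 3.58.1 (R 4.3.3) fitted treatment with culture as a block (2 residual and 2.88 prior degrees of freedom), with Benjamini-Hochberg adjustment over all transcripts. The pairing by culture comes from the labels, since every ratio was formed within a culture. The methods of the study set the thresholds (0.05 and 0.7).

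The members and lists were chosen with earlier results of these data known. Named genes are the 20 highest and 20 lowest that passed with 1 sign on all 4 arrays, list members that passed with up to 4 others, genes the study names, the 6 with the largest gap between cultures, and cell type markers; AKR1C1, GCLC, CDK1, FARSA and HMGCS1 were picked once their values were known. Alternatives were the direct ratios alone, arrays as separate data points, a dye term, 6 mean ratios, no ratio cutoff, centred or scaled arrays, single probes, robust variances, named genes alone and leaving out arrays or extracts. Promoter sequences are RefSeq's.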

Additional observations from a re-analysis of the deposited data

How the results depend on the processing

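Counts of higher and lower transcripts against control stayed within 1.5 times the main 368 and 303, and the 408 that also differ from AICAR in the same direction likewise, with these exceptions. The direct ratios alone gave 0 higher and 0 lower. Without the 3 arrays whose description numbers stand apart, 210 were higher and 121 lower, and 319 of the 671 calls were kept. With no replicate block, on 12 arrays as separate data points, 464 were lower, with a dye term 468, and with 6 mean ratios 455, and all 671 calls were kept in each. Leaving out 1 extract at a time, which leaves 1 residual degree of freedom, gave 0 to 79 higher and 0 to 31 lower transcripts, and 0 to 402 that differ from AICAR; the count was 0 for both directions without either control or either AICAR extract, 79 and 31 without the metformin extract of culture 1, and 42 and 7 without that of culture 2. Of 41 passing genes followed through every setting, 36 passed without the 3 arrays, 29 and 18 without the metformin extract of culture 1 or 2, and 0 under the direct ratios alone or without any 1 control or AICAR extract. Genes that did not pass and changed sign were MCU (0.0047 by direct ratios or 4 arrays, 0.0095 with scaled arrays, −0.1008 to 0.0865 when an extract or culture was left out) and ITPR3 (0.0082, 0.0164 and −0.1831 to 0.157). TXNRD1 (−0.5018 to 2.86), ITPR2 (−0.1867 to 0.0283) and MFN2 (−0.953 to 0.0716) did so when an extract or culture was left out. The cause was not tested. Testing probes singly gave 391 and 305 calls; the comparison with AICAR was not run for it. The number of cultures limits every value.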

Other observations

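Groups listed after the values were seen are given as values only. For scale, 1.24% of all transcripts tested passed as lower and 1.5% as higher. Of 53 ribosome biogenesis and nucleolar genes measured, 16 were lower with metformin (30.2%) and 0 higher, with a median of −0.52. NCL, encoding nucleolin, had −1.51 and −0.35 in culture 1 and −1.56 and −1.35 in culture 2. BOP1, NOP16, IMP4 (−1.17), FTSJ3 (−1.16), NOP56 (−1.12) and RRS1 (−1.02) were among the others; RRS1 was 1.12 above AICAR-treated cells. Of 76 mitochondrial ribosomal protein genes 7 were lower, from MRPS17 (−1.29) to MRPL20 (−0.82), and 0 higher (median −0.24). Splicing factors were lower in part, with 3 of 11 SRSF genes (SRSF3, SRSF2 and SRSF7) and 4 of 17 HNRNP genes (HNRNPD, HNRNPAB, HNRNPDL and HNRNPU). Of 12 alpha and beta tubulin genes 3 were lower, TUBA4A, TUBA1A (−1.47) and TUBB4B (−1.33).

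Of 27 NF-kB and acute phase secretory genes, 8 were higher (29.6%, against 1.5% of all transcripts) and 0 lower, with a median of 0.16. LCN2 had 2.44 and 2.38 in culture 1 and 2.62 and 2.06 in culture 2, and SERPINA3, a secreted protease inhibitor, 1.65 and 1.90 in culture 1 and 1.79 and 1.54 in culture 2. CCL20, CXCL2 (1.13), IRF1 (0.92), CXCL8 (0.82), SOCS1 (0.78) and BIRC3 were the others, of which IRF1 and BIRC3 were already counted in lists above. CXCL2 was uneven, with 0.09 and 1.21 in culture 1 and 1.62 and 0.56 in culture 2. A further 158 called transcripts had no gene name.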
